A study of Homo sapiens with 4 samples.

Results

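Angiogenic growth factors and the neuropilins that serve as their co-receptors were read in 4 RNA-seq libraries of MKN-45, an established human gastric cancer cell line. The 10 genes were chosen by name, as VEGFA, VEGFB, VEGFC, PGF, FGF2, PDGFA, PDGFB, EFNA1, NRP1 and NRP2, among 58735 genes in the count files. All 10 were found, each on 1 row, and 9 had enough counts to be tested. All cells carried a lentivirus and had been selected with puromycin. In 2 libraries the virus was a control virus (labelled NC), and in the other 2 it was one meant to overexpress SIX2, a transcription factor of the homeobox class. Sample titles number the libraries 1 and 2 in each group, and nothing in the labels says that a number is a separate culture, so the p-values rest on a spread among 4 libraries that may be technical.

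Endothelial cells grow towards secreted ligands of the VEGF family, which bind the receptor tyrosine kinases FLT1, KDR and FLT4, and neuropilins on the cell surface strengthen that binding. FGF2 acts through FGF receptors and is held in the matrix by heparan sulfate, PDGF ligands recruit pericytes and fibroblasts through PDGF receptors, and ephrin A1 is a membrane-anchored ligand of EphA receptors. Tumour cells are a common source of these factors, VEGFA above all, which is induced by hypoxia. Neuropilins also bind class 3 semaphorins together with plexins, and NRP2 is the neuropilin best known as a co-receptor for VEGFC.

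The libraries held between 14792869 and 16777792 counts. SIX2 had 369 and 597 counts in control replicates 1 and 2, and 379 and 605 counts in SIX2 replicates 1 and 2. Its level did not follow the SIX2 label (log2 fold change 0.02, SE 0.37, adjusted p = 1.00, edgeR quasi-likelihood test), so directions between groups are drawn between labels only. SIX2 was higher in the libraries numbered 2 (log2 change 0.64, SE 0.13, adjusted p = 0.00119, edgeR). Log2 CPM of the libraries that share a number had Pearson correlations of 0.991 and 0.987 across genes, against 0.916 and 0.917 within a group (genes are not independent replicates). Libraries thus stood apart by number, and both comparisons are given for each gene. Where a pair of values is given under a number, the control library comes first and the library labelled SIX2 overexpression second. Keratins KRT8 and KRT18 were at 763 to 3549 CPM in every library and EPCAM at 8.91 to 12.2 CPM, while KRT19 had at most 0.134 CPM. The epithelial markers split by number. KRT8 and KRT18 were higher in number 2 (log2 changes 0.87 and 0.79, adjusted p = 0.00015 and 0.000344, edgeR). CDH1, CLDN7 and CLDN4 were lower (-1.67, -1.39 and -0.75, adjusted p = 2.06e-05, 2.71e-05 and 0.00441, edgeR). EPCAM and MUC1 changed less (-0.35 and 0.09, adjusted p = 0.128 and 0.652, edgeR). Of 6 gastric markers 4 had enough counts to be tested. MUC5AC was at 7.23 to 15.3 CPM, CLDN18 at 1.88 to 4.84 CPM, MUC6 at 0.801 to 1.27 CPM and TFF1 at 0.179 to 1.74 CPM. TFF1 was lower in number 2 (log2 change -2.46, adjusted p = 0.00276, edgeR). It reached the level of the low-count filter (0.615 CPM) under number 1 only. The other 3 did not pass. TFF2 and GKN1 reached at most 0.468 and 1.34 CPM.

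Between the libraries labelled SIX2 overexpression and the controls, 0 of the 9 tested genes passed the threshold, an adjusted p of 0.05 by edgeR's quasi-likelihood test with Benjamini-Hochberg adjustment over 16343 tested genes. The background was the same, with 0% of tested genes called. At an unadjusted p under 0.05 there were 0 of the 9 genes and 12 of all genes. With number as a second term in edgeR these were 0 of the 9 and 501 of all genes. DESeq2 and limma-voom also called 0, but they too were fitted without number. In each of the 9 genes the CPM (counts per 1000000 after scaling) of the groups overlapped, and groups did not overlap in 11.8% of all tested genes. Each number holds 1 library of either label, so groups must overlap wherever the numbers do not. That was so for 7 of the 9 genes, and their overlap cannot speak to the label. The log2 fold changes lay between -0.18 for PDGFB and 0.30 for VEGFC, with a median of 0.09 against -0.0025 over all tested genes. Their standard errors, 0.21 to 1.31, include the differences between numbers. The smallest adjusted p among the 9 was 1.00.

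**Figure D1:**
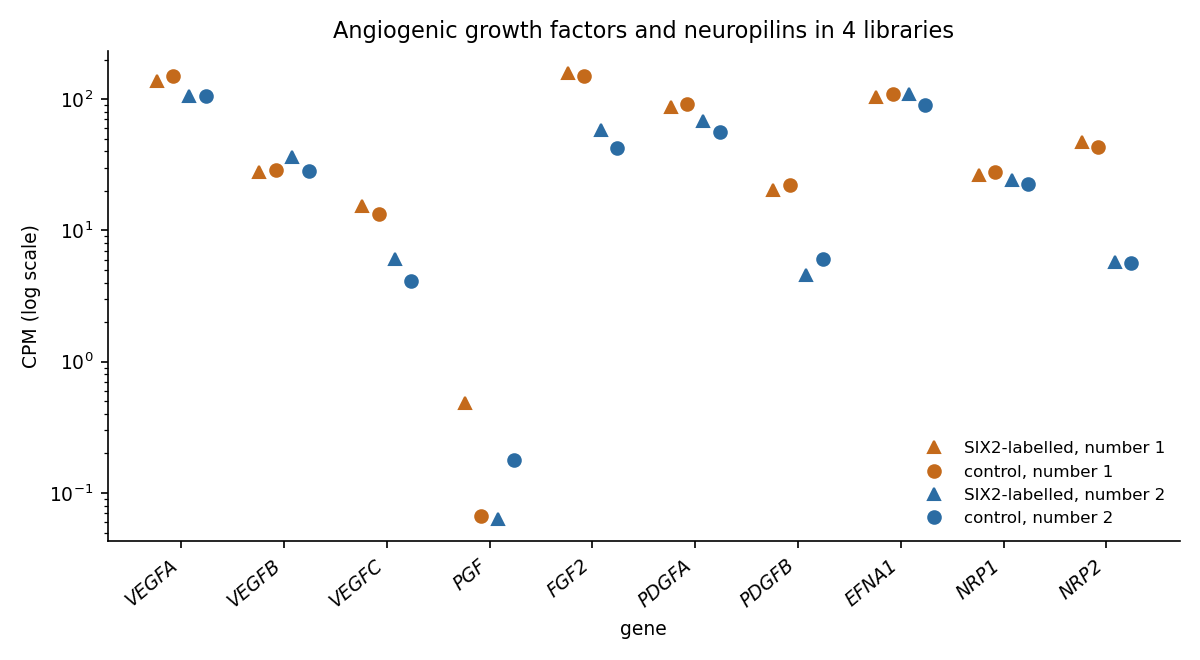
CPM (y axis, log scale) of the 10 genes (x axis) in the 4 libraries, with 1 point per library, circles for controls, triangles for libraries labelled SIX2 overexpression, orange for number 1 and blue for number 2. NRP2 lies at 43.0 and 47.3 CPM under number 1, against 5.62 and 5.70 CPM under number 2. The 2 groups overlap for each of the 10 genes, as they must wherever the numbers do not overlap.

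When number 2 was compared with number 1, with 1 library of either label on each side, 6 of the 9 tested genes fell, 0 rose and 3 did not pass the threshold. The neuropilin NRP2, the growth factors FGF2, PDGFB and VEGFC, and more weakly PDGFA and VEGFA, were lower in number 2. Of all tested genes 21.6% were called lower, 22.2% higher and 43.8% either way. At least 2-fold lower were 4 of the 9 genes, against 7.43% of all tested genes. The CPM of the numbers did not overlap for 7 of the 9, against 72.2% of all tested genes, a share close to the background. Among protein-coding genes with at least the mean CPM of VEGFC, the lowest of the 9, 26.0% were called lower. The median log2 change of the 9 genes was -0.54, against 0.01 over all tested genes. The genes were chosen with earlier results of these data known. In bulk RNA, fewer cells of a type and less RNA per cell cannot be told apart.

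Of the neuropilins, NRP2 differed between numbers and NRP1 did not pass the test. NRP2 (chromosome 2, 205681990 to 205798133, plus strand, GRCh38) was at 43.0 and 47.3 CPM under number 1, against 5.62 and 5.70 CPM under number 2. Both libraries numbered 1 were far above both numbered 2, and within a number the labels lay close. NRP2 was 7.97-fold lower in number 2 (log2 change -2.99, SE 0.15, adjusted p = 8.38e-09, edgeR), a change below which only 1.09% of tested genes lay. NRP1 (chromosome 10, 33177492 to 33336262, minus strand), the neuropilin through which VEGFA and class 3 semaphorins such as SEMA3A act, was at 28.0 and 26.4 CPM under number 1, against 22.6 and 24.1 CPM under number 2. The numbers did not overlap, but the log2 change of -0.22 (SE 0.13) gave an adjusted p of 0.195 by edgeR. The ratio of NRP1 to NRP2 counts was 0.651 and 0.558 in control and SIX2 replicates 1, and 4.02 and 4.22 in replicates 2. The balance of the 2 co-receptors thus differed between numbers with no overlap. The difference between their changes was not tested.

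**Figure D2:**
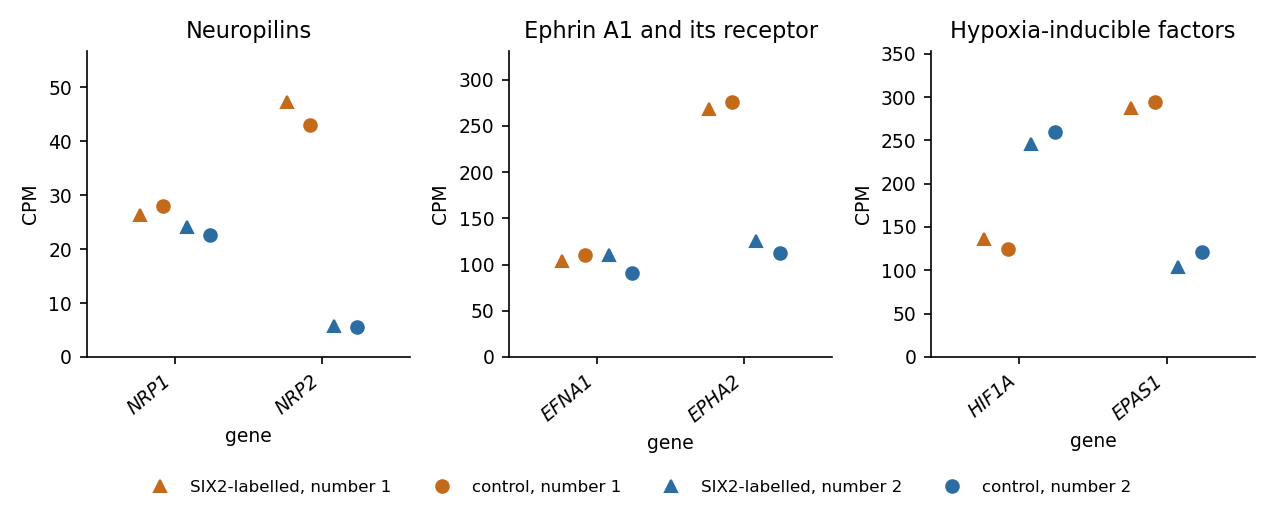
CPM (y axes, from 0) of NRP1 and NRP2, of EFNA1 and its receptor EPHA2, and of the hypoxia-inducible factors HIF1A and EPAS1, with 1 point per library, circles for controls, triangles for libraries labelled SIX2 overexpression, orange for number 1 and blue for number 2. NRP2, EPHA2 and EPAS1 are lower in number 2 and HIF1A is higher, while the points of EFNA1 overlap.

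FGF2, a heparin-binding mitogen of endothelial and stromal cells, fell second most among the ligands, after PDGFB. FGF2 (chromosome 4, 122826708 to 122898236, plus strand) was at 149 and 158 CPM under number 1, against 42.2 and 57.9 CPM under number 2. Within number 2 the SIX2-labelled library was the higher, and neither reached the level of number 1. FGF2 was 3.06-fold lower in number 2 (log2 change -1.61, SE 0.14, adjusted p = 1.31e-06, edgeR). The gene NUDT6, which lies on the opposite strand and overlaps FGF2 over 9540 bases, had 53 to 73 counts a library, against 706 to 2601 for FGF2, and did not follow it (log2 change -0.05, adjusted p = 0.906, edgeR). The strand setting of the counting is not given in the sources used here, so reads of the pair cannot be told apart. The antisense gene AC021205.3 had at most 12 counts.

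Both PDGF chains fell, PDGFB by the larger fold, and the difference between the chains was not tested. PDGFB (chromosome 22, 39223359 to 39244751, minus strand), the PDGF chain that recruits pericytes to new vessels, was at 22.2 and 20.4 CPM under number 1, against 6.10 and 4.56 CPM under number 2. It was 3.98-fold lower in number 2 (log2 change -1.99, SE 0.19, adjusted p = 2.64e-06, edgeR). PDGFA (chromosome 7, 497258 to 520296, minus strand), a ligand of PDGF receptor alpha, was at 92.2 and 87.6 CPM under number 1, against 55.7 and 68.1 CPM under number 2. The numbers did not overlap, and PDGFA was 1.45-fold lower in number 2 (log2 change -0.54, SE 0.12, adjusted p = 0.00278, edgeR).

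Of the VEGF family members among the 10 genes, VEGFC fell most, while VEGFD, outside the 10, was called higher and is given below. VEGFC (chromosome 4, 176683538 to 176792727, minus strand), the main growth factor of lymphatic vessels, was at 13.4 and 15.4 CPM under number 1, against 4.13 and 6.02 CPM under number 2, from 69 to 254 counts. The numbers did not overlap, and VEGFC was 2.84-fold lower in number 2 (log2 change -1.51, SE 0.21, adjusted p = 9.76e-05, edgeR). VEGFA (chromosome 6, 43770184 to 43786487, plus strand), the principal angiogenic ligand, was at 150 and 137 CPM under number 1, against 105 and 105 CPM under number 2. It was 1.37-fold lower in number 2 (log2 change -0.45, SE 0.11, adjusted p = 0.00404, edgeR), but without control replicate 1 the change was -0.39 with an adjusted p of 0.122. VEGFB (chromosome 11, 64234538 to 64238793, plus strand), a ligand of FLT1, was at 28.9 and 27.9 CPM under number 1, against 28.4 and 36.3 CPM under number 2. Its numbers overlapped and it did not pass (log2 change 0.19, SE 0.14, adjusted p = 0.306, edgeR), except without control replicate 2 (0.37, adjusted p = 0.0118). PGF (chromosome 14, 74941834 to 74955784, minus strand), the placental member that also binds FLT1, had 1 and 3 counts in control replicates 1 and 2, and 8 and 1 counts in SIX2 replicates 1 and 2. PGF was below the filter on low counts and was not tested.

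EFNA1 did not pass between numbers, while its receptor EPHA2 did. EFNA1 (chromosome 1, 155127460 to 155134857, plus strand), the ephrin A1 ligand, was at 110 and 104 CPM under number 1, against 90.7 and 110 CPM under number 2, with overlapping numbers (log2 change -0.09, SE 0.12, adjusted p = 0.565, edgeR). Without SIX2 replicate 2 it was called lower (-0.23, adjusted p = 0.0481), and without control replicate 2 the sign turned (0.06, adjusted p = 0.666). EPHA2, a receptor for ephrin A1 on epithelial cells, was at 276 and 268 CPM under number 1, against 113 and 126 CPM under number 2 (log2 change -1.19, adjusted p = 2.07e-06, edgeR).

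**Figure D3:**
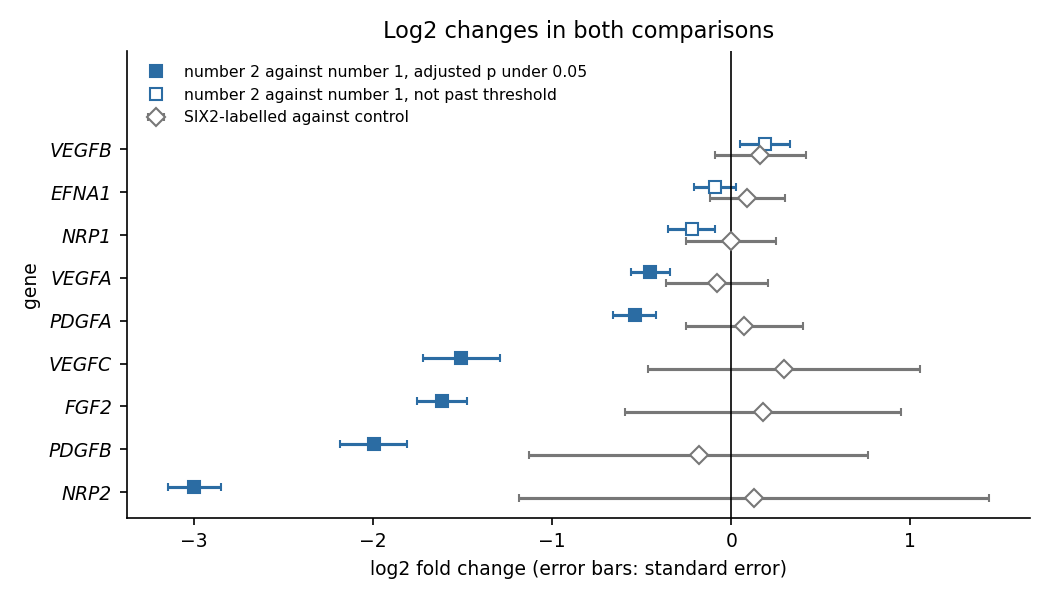
Log2 fold changes (x axis) of the 9 tested genes (y axis) with standard errors as bars, blue squares for number 2 against number 1 (filled where the adjusted p was under 0.05) and grey diamonds for SIX2-labelled libraries against controls. The blue points run from -2.99 for NRP2 to 0.19 for VEGFB, and the grey points all lie within 1 standard error of 0.

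Sequence before the RefSeq start site is shown for genes that fell in number 2 and, for contrast, VEGFB, which did not pass. RefSeq start sites on GRCh38.p14 were found for 7 of the 10 genes, VEGFB, VEGFC, PGF, FGF2, PDGFA, EFNA1 and NRP2, with several sites for PDGFA and PGF, of which the one nearest the gene's start in the files was used. Capitals mark GC boxes, GGGCGG on either strand (CCGCCC on the strand shown), the site of SP1-type factors. Each line runs 5′ to 3′ on the gene's strand and gives the stretch of the 250 bases before the RefSeq start site that lies outside annotated exons of the gene.
NRP2 (chr2:205682251-205682499, plus strand): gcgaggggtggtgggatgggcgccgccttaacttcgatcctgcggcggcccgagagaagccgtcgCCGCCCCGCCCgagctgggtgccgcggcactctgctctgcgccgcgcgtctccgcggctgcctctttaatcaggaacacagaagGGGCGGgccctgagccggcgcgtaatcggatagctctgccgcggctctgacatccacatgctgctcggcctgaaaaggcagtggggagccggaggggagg
FGF2 (chr4:122826581-122826707, plus strand): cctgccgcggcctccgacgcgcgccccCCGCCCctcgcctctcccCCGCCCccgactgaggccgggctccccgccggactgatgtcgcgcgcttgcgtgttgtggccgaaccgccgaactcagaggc
VEGFC (chr4:176792923-176793172, minus strand): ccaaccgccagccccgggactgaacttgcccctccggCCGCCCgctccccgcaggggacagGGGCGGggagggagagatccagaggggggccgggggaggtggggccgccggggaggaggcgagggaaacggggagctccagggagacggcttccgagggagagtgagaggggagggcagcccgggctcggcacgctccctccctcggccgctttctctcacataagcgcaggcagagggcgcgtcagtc
PDGFA (chr7:520297-520476, minus strand): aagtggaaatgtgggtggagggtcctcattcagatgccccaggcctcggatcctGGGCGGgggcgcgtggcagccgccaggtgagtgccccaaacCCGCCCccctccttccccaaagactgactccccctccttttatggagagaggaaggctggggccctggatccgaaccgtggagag
VEGFB (chr11:64234334-64234537, plus strand): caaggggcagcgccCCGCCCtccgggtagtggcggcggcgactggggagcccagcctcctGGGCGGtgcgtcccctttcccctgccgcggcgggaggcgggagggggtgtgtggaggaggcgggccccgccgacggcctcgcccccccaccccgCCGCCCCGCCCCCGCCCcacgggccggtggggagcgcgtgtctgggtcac
The RefSeq start sites of EFNA1 and NRP2 lie 416 and 511 bases inside the gene as annotated in the files. Their windows are thus not upstream of the annotated gene start. The whole windows also include annotated exon bases, all 250 for EFNA1, 123 for FGF2, 70 for PDGFA, 46 for VEGFB and 20 for PGF. In the whole 250 bases before the start site, 7 of the 7 windows held a GC box, against 42.6% of 35116 windows of the same length. Their GC content was 68.8% to 82.8%, against a median of 58% over all windows. The hypoxia response core, searched on both strands as GCGTG, was found in 5 of the 7 (32.2% of all windows) and as ACGTG in 0 of the 7 (18.5%). GCGTG was present in the windows of VEGFB and EFNA1, which did not pass, and of FGF2, VEGFC and PDGFA, which fell. It was absent from the window of NRP2, which fell most. The AP-1 site TGACTCA was found in 0 of the 7 (4.20% of all windows), TATAAA in 0 of the 7 (10.7%) and the MEF3 site TCAGGTTTC, a site of SIX-family factors, in 0 of the 7 (0.288%). A match is a description of letters in these windows, not a bound site, and motifs may overlap each other.

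Levels of different genes were compared per kilobase of the gene length in the files, which is the union of all annotated exons. In number 1, EFNA1 stood first at 42.0 ± 1.69 CPM per kilobase (SD, n = 2), followed by FGF2 at 22.6 ± 0.954, PDGFA at 21.7 ± 0.791, VEGFB at 18.4 ± 0.484 and VEGFA at 9.94 ± 0.671 CPM per kilobase. VEGFC at 5.94 ± 0.602, PDGFB at 5.67 ± 0.347, NRP2 at 3.25 ± 0.221, NRP1 at 2.36 ± 0.0970 and PGF at 0.0463 ± 0.0497 CPM per kilobase came after them (SD, n = 2). The libraries of FGF2 and PDGFA overlapped, as did those of VEGFC and PDGFB. In number 2, EFNA1 was at 39.5 ± 5.31, VEGFB at 20.9 ± 3.62, PDGFA at 14.9 ± 2.11, FGF2 at 7.39 ± 1.64 and VEGFA at 7.27 ± 0.0063 CPM per kilobase (SD, n = 2). VEGFC at 2.10 ± 0.554, NRP1 at 2.03 ± 0.0909, PDGFB at 1.42 ± 0.289, NRP2 at 0.408 ± 0.0042 and PGF at 0.0204 ± 0.0138 CPM per kilobase closed the order (SD, n = 2). FGF2 and VEGFA overlapped, as did VEGFC and NRP1, and NRP2 had moved below NRP1. The order depends on the length used, since the union of exons is 14431 bases for VEGFA, whose coding transcripts have a median of 1098.5 bases. With the median length of coding transcripts, chosen after seeing the data, VEGFA stood first in both numbers, at 131 and 95.5 CPM per kilobase, ahead of PDGFA and EFNA1.

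The group difference was then read within each number, as a ratio of the SIX2-labelled to the control library, with 1 library a side and no test. In number 1, 3 of the 9 genes were higher in the SIX2-labelled library, and in number 2, 8 of the 9 were. The median log2 ratio over all tested genes was 0.0030 in number 1 and 0.0047 in number 2. About as many of all genes were thus higher as lower. For the 9 genes the medians were -0.075 and 0.28. Only VEGFC, FGF2 and NRP2 were higher in both numbers, and only PDGFB was lower in both. Over all tested genes with counts in every library 23.1% were higher in both and 21.8% lower in both. VEGFC had a ratio under number 1 of 1.15 (95% counting interval 0.955 to 1.40), and under number 2 of 1.46 (1.06 to 2.02). FGF2 had 1.06 (1.00 to 1.12) and 1.37 (1.24 to 1.52), and PDGFB 0.917 (0.786 to 1.07) and 0.748 (0.545 to 1.02). Among the ratios of all tested genes, VEGFC lay at the 83.5th percentile in number 1 and the 93.2nd in number 2, FGF2 at the 67.0th and the 90.9th, and PDGFB at the 27.4th and the 12.8th. Intervals cover counting error only.

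**Figure D4:**
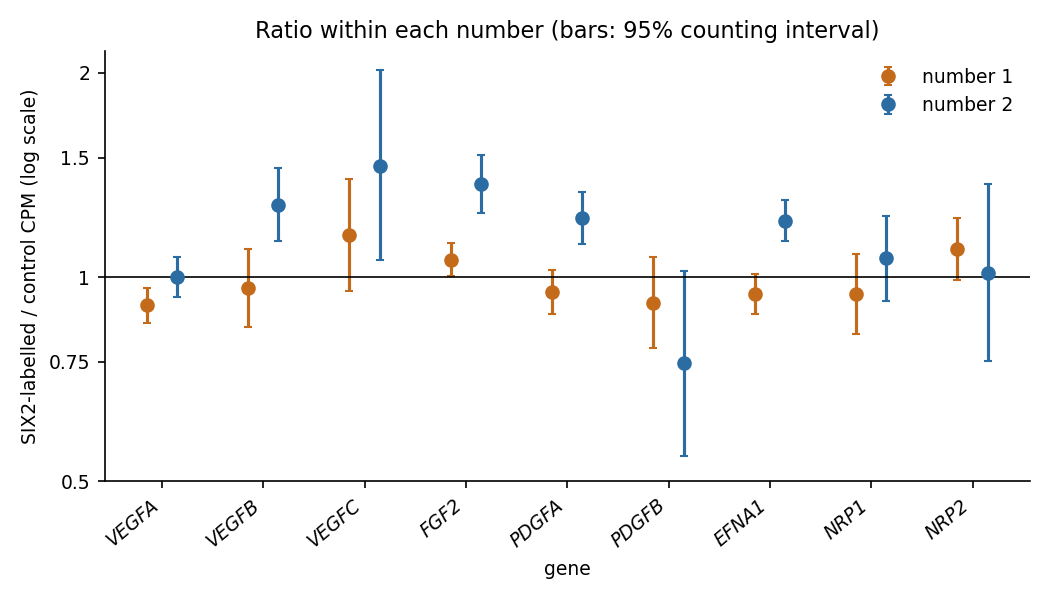
Ratio of CPM in the SIX2-labelled library to that in the control library (y axis, log scale) for the 9 tested genes (x axis), orange for number 1 and blue for number 2, with 1 library a side and bars for the 95% counting interval. In number 1 the ratios lie from 0.909 to 1.15 and in number 2 from 0.748 to 1.46.

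VEGFD, PDGFC and PDGFD, ligands of the VEGF and PDGF families that were not among the 10 genes, were at no more than 6.59 CPM in any library. In number 2, PDGFD, at a mean of 6.05 CPM, lay near PDGFB (5.33 CPM) and VEGFC (5.07 CPM) of the 10. The 9 tested genes among the 10 all reached the filter's level in both numbers. PDGFD was called higher in number 2. VEGFD and PDGFC were also called higher, but both of their libraries reached the level of the low-count filter (0.615 CPM) only under number 2, so they could be tested only through the number in which they were high, and the list's count is no support for a direction. PDGFD, a PDGF receptor beta ligand, was at 1.87 and 1.82 CPM under number 1, against 5.50 and 6.59 CPM under number 2. VEGFD, which like VEGFC binds FLT4, was at 0.668 and 0.546 CPM under number 1, against 2.51 and 3.04 CPM under number 2. PDGFC had 2 counts under number 1 against 92 under number 2 (ratio 44.5, 95% counting interval 11.98 to 373). The adjusted p was 0.000317 for PDGFD by edgeR. Between groups 0 of the 3 passed.

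The VEGF receptors had few or no counts in these cells. KDR was at 0 counts in all 4 libraries, as was PDGFRA, and FLT1 and FLT4 reached at most 0.317 and 0.200 CPM. Of all tested genes 22.2% were called higher and 21.6% lower between numbers, which is the background for this list and each list that follows. Of 15 receptors of the ligands 10 were tested, and 3 rose, 4 fell and 3 did not pass between numbers (median log2 change -0.19), and 0 passed between groups. Of the 6 that reached the filter's level in both numbers, 1 rose, 3 fell and 2 did not pass. FGFR2 and EPHA5 reached it under number 2 only. FGFR2, an FGF receptor, had 0 counts in number 1 and 71 in number 2, at least 22.9-fold higher when 3 counts summed over the pair are taken as the floor. The more abundant FGFR1 and FGFR3, at 23.7 to 43.0 and 52.6 to 89.4 CPM, were lower in number 2. Their log2 changes were -0.65 and -0.48 (adjusted p = 0.00161 and 0.0108, edgeR). FGFR4, at 30.5 to 37.2 CPM, did not pass. PDGFRB, a PDGF receptor, was higher in number 2, at 1.80 and 1.46 CPM against 9.03 and 4.18 CPM. Its log2 change was 2.02 (adjusted p = 0.000752, edgeR). EPHA5, an EphA receptor, was at 0 and 0.364 CPM under number 1, against 4.25 and 4.37 CPM under number 2.

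Partners and ligands of the neuropilins were expressed, with changes in both directions. Of 14 plexins and class 3 semaphorins 13 were tested, and 4 rose, 3 fell and 6 did not pass between numbers (median log2 change 0.29). The share called was near that of all tested genes, 43.8% either way. Between groups 0 were called. Of the 12 that reached the filter's level in both numbers, 4 rose, 2 fell and 6 did not pass. PLXNA2, a plexin that signals with neuropilins, was at 143 and 143 CPM under number 1, against 71.7 and 67.3 CPM under number 2 (log2 change -1.04, adjusted p = 5.90e-06, edgeR). SEMA3C, a semaphorin that binds both neuropilins, was at 53.8 and 61.7 CPM under number 1, against 29.9 and 31.7 CPM under number 2 (log2 change -0.91, adjusted p = 6.02e-05). SEMA3F, the semaphorin that acts through NRP2, was at 28.8 and 28.95 CPM under number 1, against 45.2 and 48.7 CPM under number 2 (log2 change 0.70, adjusted p = 0.000384, edgeR). SEMA3F was thus higher in the libraries in which NRP2 was lower. Of 7 other ephrins 6 were tested, and 1, EFNB2, an ephrin of arterial endothelium, rose (log2 change 0.94, adjusted p = 0.0409, edgeR) and 5 did not pass, among them EFNA5 (0.54, adjusted p = 0.101) and EFNA3 (0.40, adjusted p = 0.277). The EFNB2 call was lost, leaving 0, without control replicate 1 or SIX2 replicate 1 and by DESeq2 and limma-voom.

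**Figure D5:**
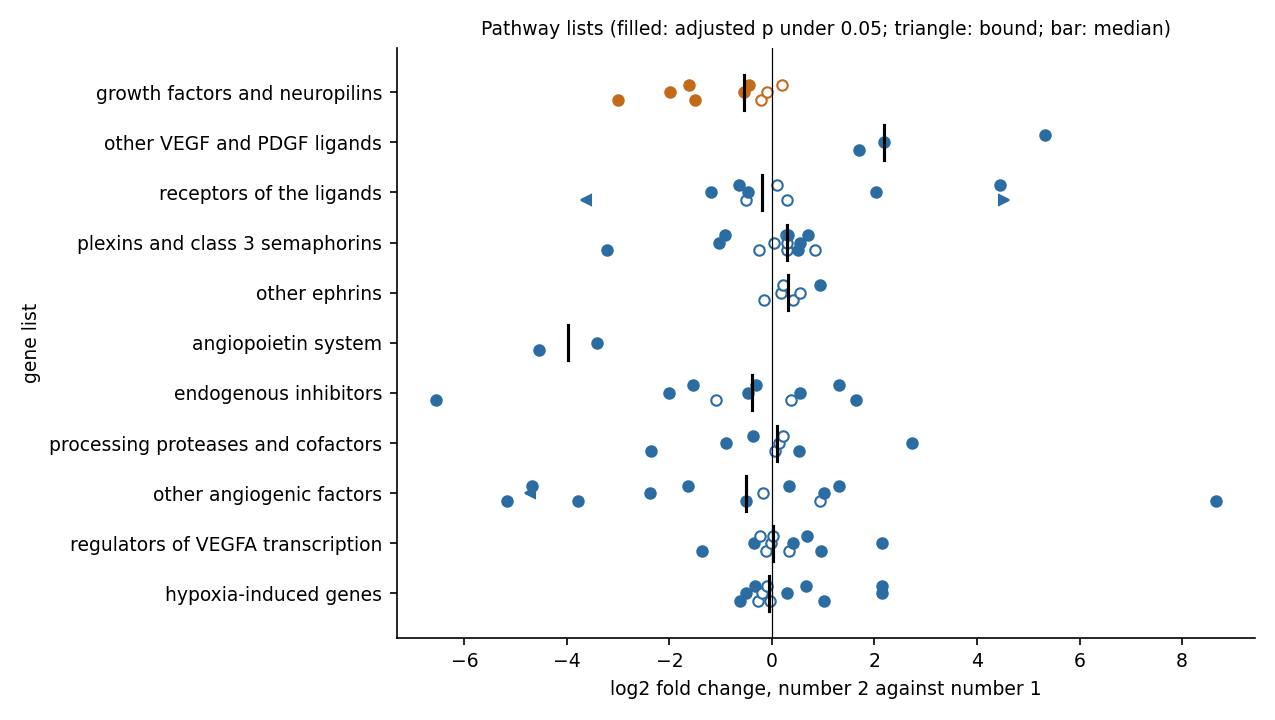
Log2 fold change of number 2 against number 1 (x axis) for the tested genes of each list (y axis), filled where the adjusted p was under 0.05, triangles for bounds of genes with 0 counts in 1 number, and black bars for the medians. The angiogenic growth factors and neuropilins (orange) have a median of -0.54, and the other lists hold genes on both sides of 0 except the other VEGF and PDGF ligands and the angiopoietin system, each with genes that reached the filter's level in 1 number only.

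Factors that act beside these ligands also differed between numbers. In the angiopoietin system 2 of 6 genes were tested, ANGPTL4 and ANGPT1, and ANGPT1 reached the filter's level only under number 1, where it was high. ANGPTL4, a secreted lipoprotein lipase inhibitor that also acts on vessels, was at 47.2 and 43.8 CPM under number 1, against 4.55 and 3.93 CPM under number 2 (log2 change -3.42, adjusted p = 4.48e-09, edgeR). ANGPT1, the TEK agonist, had 28 counts under number 1 against 1 under number 2 (ratio 28.9, counting interval 4.78 to 1183). Of 14 other angiogenic factors 13 were tested, and 7 fell, 4 rose and 2 did not pass (median log2 change -0.51). Of the 9 that reached the filter's level in both numbers, 4 fell, 3 rose and 2 did not pass, and PTN is not among them. IL6, an inflammatory cytokine, was at 62.6 and 63.4 CPM under number 1, against 1.61 and 3.30 CPM under number 2, and CYR61, a matricellular protein, at 121 and 119 CPM and at 21.7 and 24.5 CPM (adjusted p = 3.62e-09 and 8.30e-09, edgeR). PTN, the heparin-binding cytokine pleiotrophin, went the other way, with 2 counts under number 1 against 932 under number 2 (ratio 451, counting interval 125 to 3730). Between groups 0 genes of either list passed.

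Inhibitors of angiogenesis and the proteases that release or mature the ligands moved both ways between numbers. Of 11 endogenous inhibitors 10 were tested, and 5 fell, 3 rose and 2 did not pass (median log2 change -0.39), and the number called dropped to 5 without SIX2 replicate 1 and by DESeq2. Of the 8 that reached the filter's level in both numbers, 4 fell, 3 rose and 1 did not pass, and CXCL10 is not among them. TIMP3, which blocks VEGFA at KDR as well as metalloproteases, was at 122 and 128 CPM under number 1, against 26.0 and 35.8 CPM under number 2 (log2 change -2.02, adjusted p = 1.93e-07, edgeR). THBS1, the inhibitor thrombospondin 1, was at 101 and 100.5 CPM under number 1, against 36.2 and 33.0 CPM under number 2 (log2 change -1.54, adjusted p = 2.65e-07), and CXCL10, a chemokine that restrains vessel growth, had 114 counts under number 1 against 1 under number 2 (ratio 118, counting interval 20.7 to 4693). Of 11 proteases and cofactors 8 were tested, and 2 rose, 3 fell and 3 did not pass (median log2 change 0.11), or 2, 2 and 3 of the 7 that reached the filter's level in both numbers. FGFBP1, a carrier that frees FGF2 from the matrix, was at 1.74 and 1.52 CPM under number 1, against 10.3 and 11.4 CPM under number 2 (log2 change 2.74, adjusted p = 2.15e-06, edgeR). HPSE, the heparanase that cuts heparan sulfate chains, was at 24.3 and 23.7 CPM under number 1, against 12.4 and 13.6 CPM under number 2 (log2 change -0.89, adjusted p = 0.000305, edgeR). MMP9, a matrix metalloprotease that releases VEGFA, was at 3.01 and 4.01 CPM under number 1, against 0.538 and 0.824 CPM under number 2, and reached the filter's level under number 1 only. Carrier and ligand thus lay in opposite directions for FGF2. Between groups 0 genes of either list passed.

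The hypoxia-inducible factors that drive VEGFA transcription changed in opposite directions between numbers. HIF1A was at 125 and 136 CPM under number 1, against 260 and 246 CPM under number 2 (log2 change 0.96, adjusted p = 1.27e-05, edgeR). EPAS1, which encodes HIF-2 alpha, was at 295 and 287 CPM under number 1, against 121 and 104 CPM under number 2 (log2 change -1.37, adjusted p = 8.32e-07, edgeR). Of 12 regulators of VEGFA transcription 11 were tested, and 4 rose, 2 fell and 5 did not pass (median log2 change 0.02). Of all tested genes 43.8% were called either way. Of 12 hypoxia-induced genes all were tested, and 5 rose, 3 fell and 4 did not pass (median log2 change -0.06), with 5 called (4 higher and 1 lower) without control replicate 1 and 5 called (3 higher and 2 lower) without SIX2 replicate 1. EGLN3, an oxygen sensor that is itself induced by hypoxia, BNIP3, a mitophagy receptor, and CA9, a carbonic anhydrase, were higher in number 2, with log2 changes of 2.15, 1.01 and 2.15 (adjusted p = 2.55e-05, 2.32e-05 and 4.82e-05, edgeR). LOX and SLC2A1 were also higher (log2 changes 0.65 and 0.29, adjusted p = 0.00808 and 0.042, edgeR). PFKFB4, ADM and NDRG1 were lower in number 2, as VEGFA was. Their log2 changes were -0.63, -0.51 and -0.32 (adjusted p = 0.00269, 0.0282 and 0.0278, edgeR). Whether hypoxia had a part in any of these changes was not tested. Between groups 0 genes of either list passed.

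Some genes used as markers of other cell types also differed between numbers. The summed level of the 10 endothelial markers was 33.2 and 32.8 CPM under number 1 and 14.5 and 20.03 CPM under number 2, and ERG was at 0 in all libraries. Only ESAM and CDH5, 2 of the 10, had enough counts to be tested, and they made up most of that sum. The others reached at most 1.01 CPM, for VWF. The junction protein gene ESAM fell, at 24.3 and 22.7 CPM under number 1, against 4.61 and 6.34 CPM under number 2 (adjusted p = 1.53e-06, edgeR). CDH5, which encodes VE-cadherin, was at 7.68 and 8.86 CPM under number 1, against 8.67 and 11.8 CPM under number 2, and did not pass (log2 change 0.30, adjusted p = 0.259, edgeR). Of 11 fibroblast and pericyte markers 8 were tested, with 2 higher and 3 lower in number 2. Of the 5 that reached the filter's level in both numbers, 2 were higher, 2 lower and 1 did not pass. PDGFRA was at 0 and COL1A2 and THY1 at no more than 0.0668 CPM in any library. Summed levels of the 11 were 374 and 378 CPM in number 1 and 461 and 454 CPM in number 2. Those sums cover changes in opposite directions. COL1A1 was at 54.1 and 56.9 CPM under number 1, against 279.5 and 274 CPM under number 2, and DCN, which encodes decorin, at 23.5 and 28.4 CPM, against 0.658 and 1.01 CPM (adjusted p = 5.31e-09 and 8.48e-09, edgeR). LUM, which encodes lumican, was at 42.3 and 49.04 CPM under number 1, against 0 and 0.127 CPM under number 2. It reached the filter's level under number 1 only. CSPG4 was lower in number 2, at 249 and 239 CPM against 169 and 170 CPM (adjusted p = 0.0011, edgeR). PDGFRB, given above, was higher. Of 8 immune markers 1 was tested and did not pass, with summed levels of 3.28 to 4.14 CPM, and PTPRC and CD3E were at 0. Whether any such cells were present, or had a part in the differences between numbers, was not tested.

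The genes whose pattern over the 4 libraries was most like that of VEGFA, the gene with the highest mean CPM of the 10, were PPP1R14B, PUSL1, AAMP, FBXL19 and ETNK1. Their log2 CPM, centred over the 4 libraries, lay within a root mean square distance of 0.0071 to 0.017 of VEGFA, against a median of 0.28 over 9622 protein-coding genes with a mean CPM of at least 10. PPP1R14B, the nearest, was at 156 and 141 CPM under number 1, against 109 and 108 CPM under number 2. With 4 libraries, likeness of this kind describes these libraries only.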

How the data were processed

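The deposited files held whole-number counts per Ensembl gene for 1 library each, not normalized, per the file headers. Libraries were made from Trizol RNA with a TruSeq kit, per the labels' protocols. Neither aligner, counting program nor strand setting is given in the sources used here. Per the submitters' processing notes the build was mouse mm9, yet all 58735 gene IDs and coordinates matched human GENCODE release 29 (GRCh38). The gene length, the other deposited column used, equals the union of exons for each of the 10 genes. Depth was 14792869 to 16777792 counts a library, and VEGFC, with 69 to 254 counts, had the largest standard error of the 9 tested genes between numbers, and NRP2 between groups.

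Tests on the counts used edgeR 4.0.16 under R 4.3.3 (filterByExpr with a minimum of 10 counts at the median library size, TMM, quasi-likelihood test, Benjamini-Hochberg adjustment over 16343 genes, threshold 0.05), once with group and once with title number as the only term. Standard errors came from the F statistic. Within a number, exact binomial intervals at 95% were computed. Where 1 side had 0 counts, folds are lower bounds, with 3 counts summed over the pair as the floor. Alternatives used DESeq2 1.42.0, limma 3.58.1, other scalings, no filter, libraries left out and a second term.

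The genes, the comparison of numbers and all lists were chosen with earlier results of these data known. Named were the 10 genes, SIX2, overlapping genes, up to 3 tested genes per list with the smallest adjusted p between numbers, and 5 genes nearest VEGFA in pattern. KDR, FLT1, FLT4, PDGFRA, PDGFRB, FGFR1, FGFR3, FGFR4, LOX, SLC2A1, PFKFB4, ADM, NDRG1 and the genes named as cell type markers were singled out after their values were seen.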

Additional observations from a re-analysis of the deposited data

Results flagged for a closer look

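For 5 of the 9 tested genes the SIX2-labelled library was lower than the control in number 1 and higher in number 2, which flagged them as differing between numbers. The ratios in numbers 1 and 2 were 0.909 and 1.00 for VEGFA, 0.963 and 1.28 for VEGFB, 0.950 and 1.22 for PDGFA, 0.945 and 1.21 for EFNA1, and 0.944 and 1.07 for NRP1. The VEGFA ratio in number 2 had a counting interval of 0.936 to 1.07. Over all tested genes with counts in every library, 23.1% were higher in both numbers and 21.8% lower in both. Ratios on opposite sides of 1 were thus common among all genes, and 5 of 9 is close to that background. Each number holds 1 library per group, and whether the ratios differ was not tested. Among the 5 flagged genes, the counting intervals excluded 1 in number 1 for VEGFA only, and in number 2 for VEGFB, PDGFA and EFNA1.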

How the results depend on the processing

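Between numbers, the 6 calls were kept as a count under every alternative with all libraries (2 other scalings, no filter, DESeq2, limma-voom, group as a term), and 5 to 7 genes were called when 1 library was left out. All tested genes gave 7151 calls between numbers, 5657 by DESeq2 and 4853 to 8416 with 1 library left out. Between groups 0 of the 9 genes were called under any alternative. A replicate block (number as a term) also called 0 of the 9, and 8 of all genes in place of 0. That fit leaves 1 residual degree of freedom a gene. Deviations of same-numbered libraries from their group means correlated at 0.865, but with 2 pairs and no label that ties a number to a culture or day, the numbers were not taken to pair the libraries.

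With 1 library left out, group changes on the log2 scale ran from -0.31 to 0.21 for VEGFA, -0.043 to 0.34 for VEGFB, -0.54 to 1.38 for VEGFC, -0.73 to 1.36 for FGF2, -0.24 to 0.49 for PDGFA, -1.64 to 1.04 for PDGFB, -0.034 to 0.24 for EFNA1, -0.14 to 0.16 for NRP1, -2.10 to 2.24 for NRP2 and -0.39 to 0.34 for SIX2. Leaving out 1 library unbalances the numbers, so these values also carry the number difference, and they assume that the lone library varies like the others. NRP1 turned from -0.0027 to 0.0022 with DESeq2 size factors, 0.0077 without a filter, 0.0073 by DESeq2, 0.0078 by limma-voom and 0.0028 with the replicate block. SIX2 turned to -0.0060 by limma-voom. Between numbers, EFNA1 ran from -0.23 to 0.057 with 1 library left out. PGF, at 1 to 8 counts, is limited by depth.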

Other observations

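The summed level of the 10 genes was 637 CPM (control) and 624 CPM (SIX2 label) under number 1, against 361 CPM (control) and 418 CPM (SIX2 label) under number 2. Of the summed CPM of the 7 tested ligands, FGF2 held 26.3% and 28.7% in control and SIX2 replicates 1 and 12.7% and 14.9% in replicates 2, and VEGFA 26.6% and 24.9% and then 31.6% and 27.1%. These shares are of counts, not per length.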
